A study of Caenorhabditis elegans with 2 samples.

Results

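The 7 nucleolar and ribosome biogenesis genes pro-1, pro-2, pro-3, fib-1, nst-1, dao-5 and ncl-1, of 19973 nuclear protein-coding genes in the annotation, were examined for regions bound by RNA polymerase II through its large subunit AMA-1. They were chosen by gene symbol, with the signal values of these same lists already known, so what follows is a description and carries no test. A gene was said to carry a region where the summit of a listed region lay between 500 bp upstream of its annotated 5' end and its 3' end. AMA-1 was immunoprecipitated from whole larvae of Caenorhabditis elegans at the L1 stage, and the recovered DNA was sequenced. The animals were of N2, the wild-type strain, from the CGC stock centre. The deposited record lists their sex as pooled male and female and their age as unknown. The 2 biological replicates formed 1 group, with no other genotype or treatment. Each replicate had a list of 30000 regions, the pooled reads of both had another, and a thresholded list held 1328 of the pooled regions.

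The value given throughout is the signal of a region, a number without a unit from the authors' peak caller. It ran from 5.09 to 803 in the pooled list with a median of 9.56, and the median was 6.42 in replicate 1 and 4.53 in replicate 2. The lowest signal in the thresholded list was 34.3. Signals of separate lists are on separate scales, so ranks within a list are given beside them. The deposited −log10 q-value had a ceiling, 3.84 in the pooled list, which 3480 of its regions shared. Read numbers were not given, so the depth is unknown. The replicate and pooled lists are described as holding peaks and background, so a listed region need not be bound by polymerase. The strongest regions of pro-3, for example, had a −log10 q-value of 0.54 in replicate 1 and 0.51 in replicate 2. A gene without a region is one with no summit among the 30000 kept in a list, which does not show an absence of polymerase. In whole larvae, polymerase on a gene in more cells and more polymerase per cell cannot be told apart.

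Ribosomes are assembled in the nucleolus, where RNA polymerase I copies the ribosomal DNA and a large set of proteins folds, cuts and modifies the transcript and joins ribosomal proteins to it. The genes for those proteins, unlike the ribosomal DNA, are transcribed by RNA polymerase II. Of the 7 genes, pro-1, pro-2 and pro-3 encode counterparts of the yeast ribosome assembly factors Ipi3, Noc2 and Sda1 and are named for the proximal proliferation seen in the mutant germline. The gene fib-1 encodes fibrillarin, the methyltransferase of box C/D small nucleolar ribonucleoproteins, nst-1 the nucleolar GTPase nucleostemin, and dao-5 a counterpart of Nopp140, a nucleolar phosphoprotein. The last, ncl-1, encodes a TRIM-NHL protein that limits nucleolar size and fibrillarin abundance in this animal.

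In the pooled list 5 of the 7 genes carried a region, beside 42.8% of all protein-coding genes. In replicate 1 it was 6 of 7, beside 42.6%, and in replicate 2 it was 6 of 7, beside 44.8%. In the thresholded list 3 of the 7 did, pro-1, fib-1 and ncl-1, beside 4.68%. Since these lists were known when the genes were picked, nothing is read from those counts. Of the 7 genes, pro-1, fib-1, ncl-1 and dao-5 carried a region in the pooled list and in both replicates. The plot of the strongest region per gene shows a wide range, from a signal of 199 at pro-1 to no pooled region at pro-2 and pro-3. The median over the 7 genes of the strongest pooled signal, with a missing region taken as 0, was 24.0, and over all protein-coding genes it was 0.

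**Figure D1:**
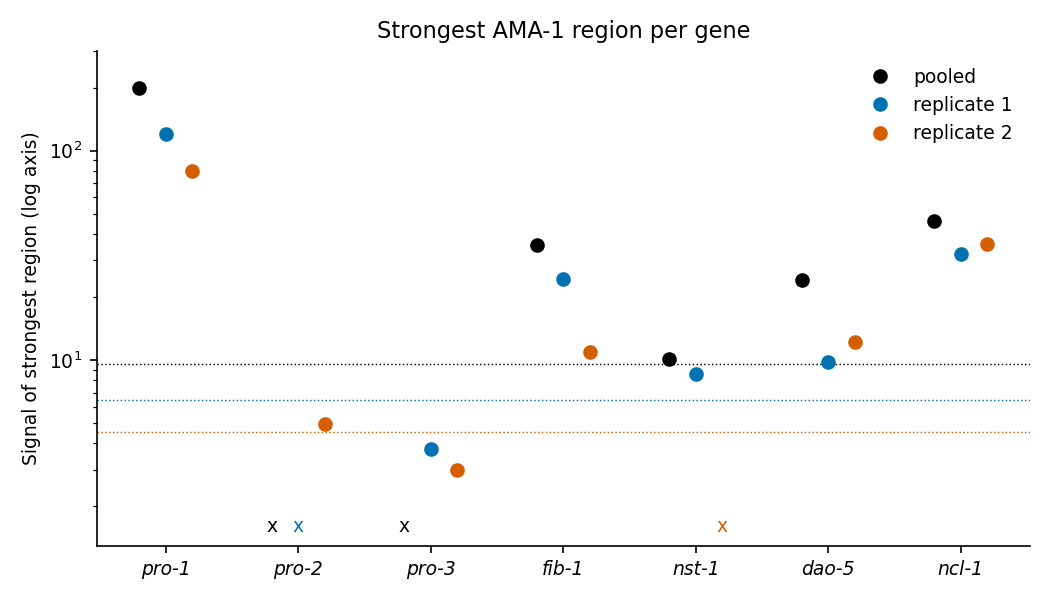
Signal of the strongest region (log axis) in the window of each of the 7 genes, in the pooled list (black), replicate 1 (blue) and replicate 2 (orange); dotted lines are the median signal of each list and a cross marks no region. The pooled values run from 10.1 at nst-1 to 199 at pro-1, and pro-2 and pro-3 have none.

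The assembly factor gene pro-1 (WBGene00004185, chromosome II, 10539438 to 10541996, minus strand, build ce11) held the highest signal of the 7. Its strongest region had a signal of 120 in replicate 1, 79.9 in replicate 2 and 199 in the pooled list. Both replicates placed it near the top of their lists, at rank 33 in replicate 1 and rank 16 in replicate 2, and it was rank 24 of the pooled list. By strongest signal pro-1 stood 13th of the protein-coding genes in the pooled list, 21st in replicate 1 and 7th in replicate 2. The summits lay at -163, -176 and -146 bp from the annotated 5' end in the pooled list, replicate 1 and replicate 2. No other gene's window held the pooled summit.

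The place of this region leaves its gene uncertain. The gene upstream on the same strand, mnk-1, which encodes a MAP kinase-interacting kinase, ends 424 bp before pro-1 begins, and the pooled summit was 262 bp past the 3' end of mnk-1. Regions covered mnk-1 throughout, with 23 pooled summits in its body, of signal 6.26 to 159 and median 38.1. Of these, 14 were in the thresholded list, the most of any protein-coding gene. Among the 23, 5 were in the window of another annotated gene too, as were 4 of the 14. The median in the body of mnk-1 was 25.4 over 24 regions in replicate 1 and 14.8 over 22 in replicate 2. Inside pro-1 itself signals were low, with pooled summits of 10.4, 7.96 and 5.97 at 589, 1613 and 2112 bp. Replicate 1 had 5.87, 4.52 and 5.83 at nearly the same positions, and replicate 2 had no summit inside pro-1. In the map of the 2 genes the signal just before pro-1 is the highest point drawn for the pooled list and for replicate 2, while in replicate 1 a region in mnk-1 was higher, with 135. Whether polymerase there belonged to transcription of mnk-1 or of pro-1 was not tested.

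**Figure D2:**
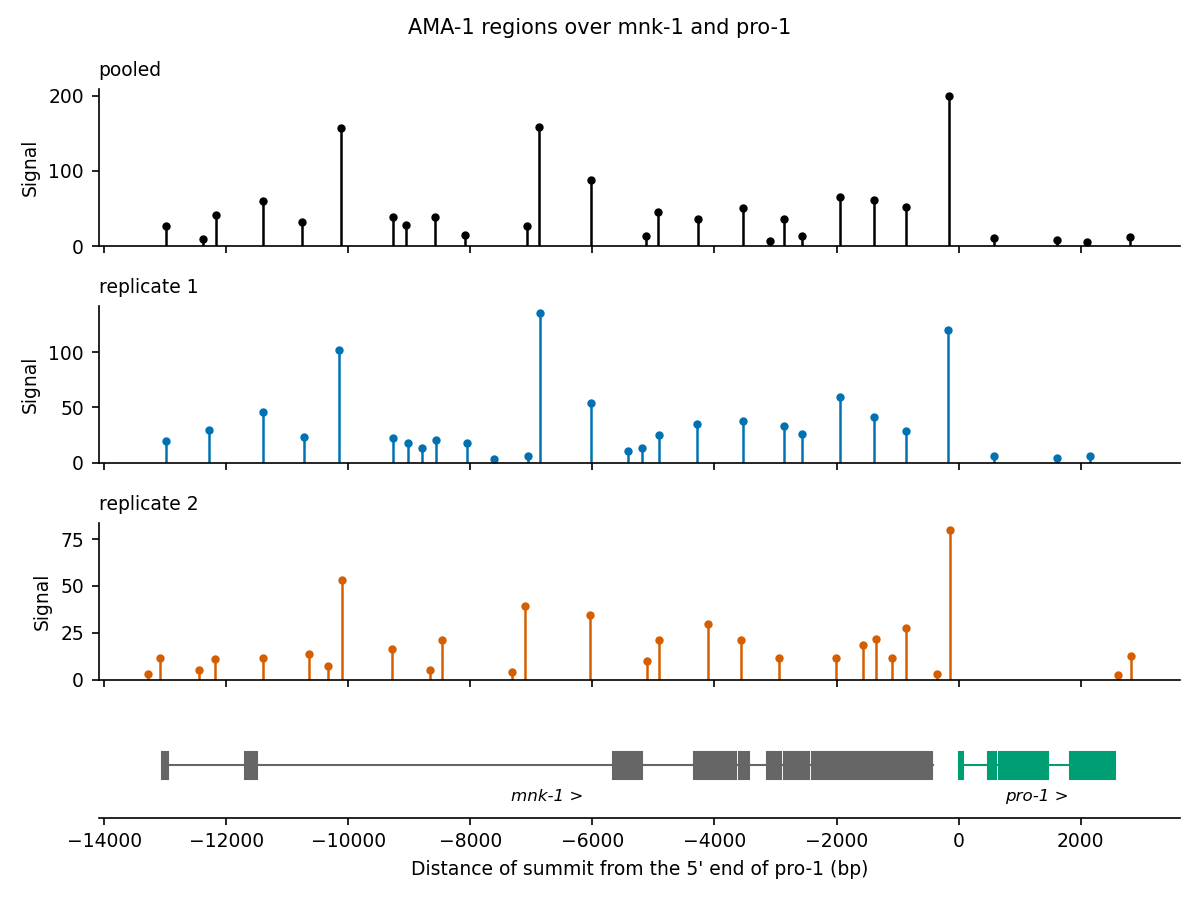
Signal of each listed region over mnk-1 and pro-1 by the distance of its summit from the 5' end of pro-1 in bp, for the pooled list, replicate 1 and replicate 2, with exons of the longest annotated transcript of each gene below. The summit at -163 bp, with a pooled signal of 199, stands between the genes, and the pooled signals inside pro-1 are at most 10.4.

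The sequence between these genes under the pooled region is shown because it carries the highest signal of the 7 genes. It is chrII:10542027-10542279 of WBcel235 (the assembly of ce11), in the direction of pro-1, with the 11 bases centred on the summit in capitals:

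pro-1 region: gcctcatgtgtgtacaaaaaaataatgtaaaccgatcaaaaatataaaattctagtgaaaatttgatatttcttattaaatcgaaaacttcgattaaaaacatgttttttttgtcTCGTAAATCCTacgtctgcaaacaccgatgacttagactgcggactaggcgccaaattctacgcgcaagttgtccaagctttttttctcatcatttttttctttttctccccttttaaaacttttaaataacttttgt

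It is rich in A and T, with 31.2% G and C, beside a median of 40.0% over 300 bases around the summits of the thresholded list. All of its 31-base words are found once in the genome, as are 90.0% of those in the window of pro-1. Of the motifs searched on both strands, TATAAA occurs once, from base 43 on the strand of the gene. The splice acceptor TTTCAG does not occur. The palindromic E-box CACGTG does not occur either.

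Just past this region lies the annotated start of pro-1, and it is preceded by TTTCAG, the usual end of a worm intron and also the place where a spliced leader is joined to a transcript. The 30 bases before the annotated 5' ends are shown for 6 of the genes, with TTTCAG in capitals where it stands directly before the 5' end (chrII:10541997-10542026, chrII:10345113-10345142 and chrV:19118413-19118442 for the pro genes, chrV:15002224-15002253 for fib-1, chrII:8283209-8283238 for nst-1, all on the minus strand, and chrIII:7719699-7719728 on the plus strand for ncl-1):

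pro-1: tataaaatctaaagtttttctataTTTCAG
pro-2: tcatgtatttccacaacatcataaTTTCAG
pro-3: ttttcaaccttaaactccacacatTTTCAG
fib-1: cctccaatgtcttctccattttcgtaattt
nst-1: cttgtcgaaaaatcaatttgtctttttaag
ncl-1: aaaagttgagggaaatcttgatttaatttc

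The 3 pro genes had these letters directly before the 5' end, and the other 4 of the 7 genes did not, beside 12.3% of all protein-coding genes. The last 2 letters alone, AG, stood before the 5' end of 5 of the 7, beside 27.6% of all. For genes of that kind the annotated 5' end may be a splice site rather than the place where transcription starts, so distances are from the annotation.

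The assembly factor gene pro-2 (WBGene00007413, chromosome II, 10339727 to 10345112, minus strand) had no region in the pooled list or in replicate 1. In replicate 2 it had 1 region, with a signal of 4.97 at -307 bp and rank 13281, a little above the median of that list. The nearest gene with its own 5' end on that side, C07E3.10, is 1262 bp away on the opposite strand. Of its window 95.1% was unique sequence. The 2 summits nearest the limit of 500 bp fell to either side of it in replicate 2, the one at -307 bp inside and one of 4.76 at -556 bp outside. A further summit, outside the window, had a pooled signal of 6.15 at -996 bp and 7.96 at -990 bp in replicate 2. It lay in the window of C07E3.10.

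The assembly factor gene pro-3 (WBGene00012676, chromosome V, 19101347 to 19118412, minus strand) had no pooled region over 17066 bp. Replicate 1 had 3.76 at 13953 bp and 3.14 at 10466 bp, and replicate 2 had 2.99 at 251 bp and 2.70 at 10124 bp. These lay near the end of the lists, with ranks of 23712 or lower. Only 67.6% of the window was unique sequence, and how far repeated sequence hid signal was not tested. The gene begins 92 bp after Y39B6A.13 on the same strand, and the nearest pooled region upstream lay at the 5' end of that gene. Its signal was 14.8 in the pooled list, 10.3 in replicate 1 and 2.72 in replicate 2, with the pooled summit 45 bp before Y39B6A.13 begins.

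The fibrillarin gene fib-1 (WBGene00001423, chromosome V, 15000651 to 15002223, minus strand) had its strongest region at the 5' end. The signal was 24.4 in replicate 1, 10.9 in replicate 2 and 35.3 in the pooled list. The summit was at -40 bp in the pooled list and in replicate 1, and at -81 bp in replicate 2. The rank was 1264 in replicate 1, 3282 in replicate 2 and 1252 in the pooled list, so the pooled region was among the lower ones of the 1328 that passed the threshold. A weaker summit lay in a coding exon, with a pooled signal of 15.6 at 1122 bp and 8.79 at 1068 bp in replicate 1, and replicate 2 had no summit there. Replicate 2 had a second summit upstream instead, of 5.69 at -349 bp, and one just outside the window, of 2.84 at -566 bp. Both of these upstream summits lay in the body of the neighbouring gene mut-15.

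The region of fib-1 was shared. The gene mut-15, which acts in the small RNA pathway that silences transposons, begins 319 bp away on the opposite strand, and the summit lay within its window too, at -280 bp. On the other side, rps-16, which encodes a small subunit ribosomal protein, begins 109 bp past the 3' end of fib-1 on the same strand. It carried a pooled signal of 20.1, with 13.3 in replicate 1 and 6.73 in replicate 2, inside its body. The upstream part of the fib-1 region is shown because it lies between 2 diverging genes, fib-1 and mut-15. It covers 209 of the 319 bp between them, those next to fib-1. It is given as chrV:15002224-15002432 in the direction of fib-1, with 11 bases at the summit in capitals:

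fib-1 upstream: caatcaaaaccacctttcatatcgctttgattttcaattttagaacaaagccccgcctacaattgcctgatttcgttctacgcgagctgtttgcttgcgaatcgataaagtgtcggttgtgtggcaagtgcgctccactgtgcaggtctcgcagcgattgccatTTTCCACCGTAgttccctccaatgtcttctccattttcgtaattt

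It holds 45.5% G and C and none of the 3 motifs searched, and all of its words are unique. The promoter of fib-1, taken as 250 bases before to 50 after the 5' end, had 40.7% G and C, the highest of the 7 genes, where the other 6 had 32.3% to 38.7% and the median of all protein-coding genes was 34.3%.

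The nucleostemin gene nst-1 (WBGene00003821, chromosome II, 8281162 to 8283208, minus strand) carried weak regions in the pooled list and in replicate 1. Pooled signals were 10.1 at 1166 bp, 8.28 at 954 bp and 8.56 at 12 bp, and the strongest ranked 13802. Replicate 1 had 4 regions, the strongest 8.54 at -142 bp, and replicate 2 had none. No pooled region in the window was near the ceiling of the −log10 q-value, and that of the strongest was 1.01. The chaperonin subunit gene cct-4 begins 458 bp away on the opposite strand and held higher signals in its own body. These were 25.8 in the pooled list, 11.0 in replicate 1 and 12.3 in replicate 2. The pooled summit at 12 bp and the replicate 1 summit at -142 bp were in the windows of both genes. The nearest pooled summit outside the window of nst-1, at -648 bp, ranked 13747, just above the strongest inside, with the same signal of 10.1 to the digits shown.

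The Nopp140 gene dao-5 (WBGene00000931, chromosome I, 10187546 to 10190896, minus strand) carried regions in both replicates and in the pooled list but not in the thresholded one. Its strongest signal was 9.78 in replicate 1, 12.2 in replicate 2 and 24.0 in the pooled list, where it ranked 2839. The replicates placed it differently. In replicate 2 and the pooled list the strongest summit was at -191 bp, but in replicate 1 it was in a coding exon at 2491 bp, and the summit at -194 bp had 7.84. All 3 pooled regions of dao-5 met a region of each replicate. The gene upstream on the same strand, lid-1, ends 376 bp away and had no region in any list, so the summit at -191 bp lay in the window of dao-5 alone. A pooled summit of 26.2 just past the 3' end, at 3570 bp, was in the body of rsa-1 on the opposite strand, with 17.7 in replicate 1 and 3.59 in replicate 2. Of the window of dao-5, 78.1% was unique sequence.

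**Figure D3:**
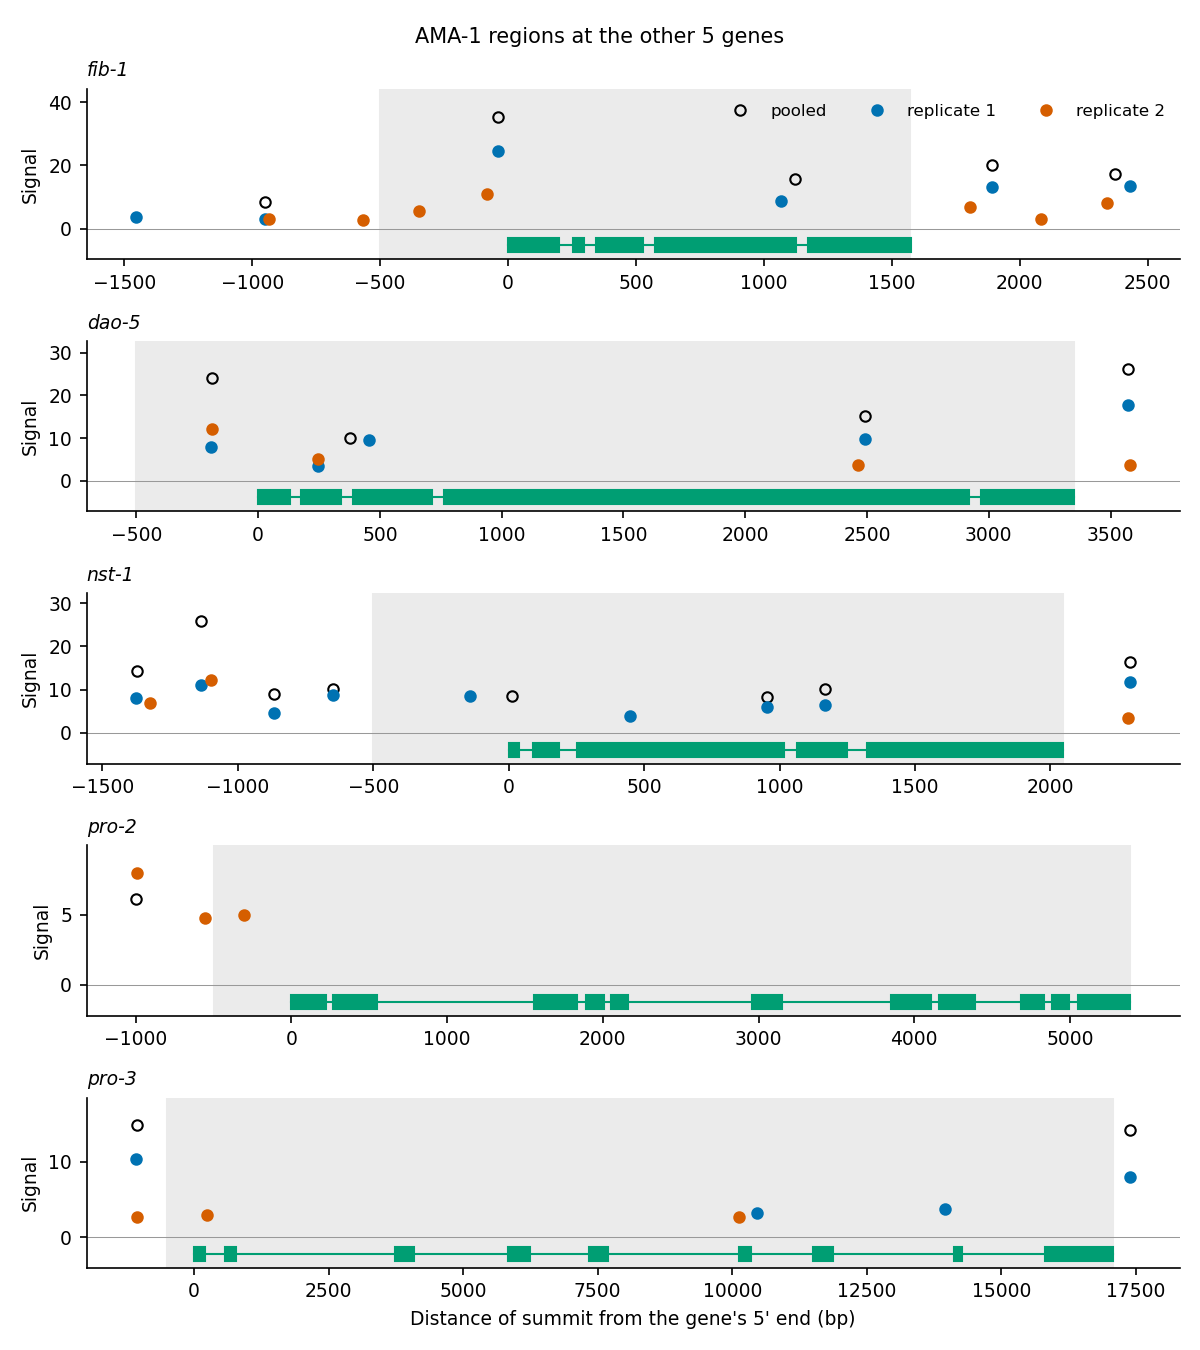
Signal of each listed region by the distance of its summit from the 5' end in bp, at fib-1, dao-5, nst-1, pro-2 and pro-3, for the pooled list (open), replicate 1 (blue) and replicate 2 (orange); the grey band is the window, green boxes are exons of the longest transcript, and summits up to 1500 bp outside the gene are shown. Signals peak before the 5' end at fib-1, with 35.3 pooled, and the window of pro-3 holds only replicate summits of at most 3.76.

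The gene for the repressor of nucleolar size, ncl-1 (WBGene00003559, chromosome III, 7719729 to 7738105, plus strand), held most of the regions of the 7 genes. It had them along its whole length of 18377 bp, with 31 in replicate 1, 32 in replicate 2 and 31 in the pooled list. Pooled signals ran from 5.42 to 46.1 with a median of 23.5, replicate 1 from 3.31 to 32.1 with a median of 14.8, and replicate 2 from 3.12 to 35.8 with a median of 10.4. Of the 31 pooled summits, 21 were in introns, 6 in coding exons, 3 in the 3' UTR and 1 upstream. Most of the gene's length is intron, so these counts do not by themselves show a preference for introns. The first intron of the longest transcript, of 7309 bp, held 9 of them and the third intron, of 3551 bp, held 7. In the latter intron 4 of the pooled summits also lay in the window of another gene, ZK112.4 (protein-coding) at 10051 and 10262 bp or ZK112.14 (non-coding) at 11141 and 11619 bp, both on the opposite strand. The replicate 1 summit at 10017 bp and the replicate 2 summit at 10228 bp were in the window of ZK112.4 as well. The annotation gives ncl-1 10 transcripts with 8 distinct 5' ends, from the outermost, used for all distances here, to 11792 bp inside it. Within 500 bp of any of the 8 lay 6 of 31 pooled summits, and 1 of the 8 thresholded ones, the upstream one. The share of the window that lies so near these ends was not worked out, so nothing is read from those counts. In the thresholded list ncl-1 had 8 regions, 1 upstream and 7 in introns, as many as tent-5 and fewer than only mnk-1 among protein-coding genes. None of the 8 was in the window of another gene.

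Long genes hold more regions, so ncl-1 is set beside the 404 protein-coding genes over 15000 bp. Their median was 4 pooled regions, and 10 of them, ncl-1 included, had 31 or more. In the thresholded list their median was 0, and ncl-1 was the only one of them with 8. By strongest pooled signal 19 of these genes were higher than ncl-1, as were 19 in replicate 1 and 4 in replicate 2. Of the 31 pooled regions of ncl-1, 27 met a region of both replicates, beside 56.0% of all 30000 pooled regions, in a comparison not matched on signal. The other genes together had 5 of 12, or 41.7%, below that share, with 3 of 3 at dao-5, 1 of 2 at fib-1, 1 of 4 at pro-1 and 0 of 3 at nst-1. The total of 32 of 43 over the 7 genes is thus mostly that of ncl-1.

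**Figure D4:**
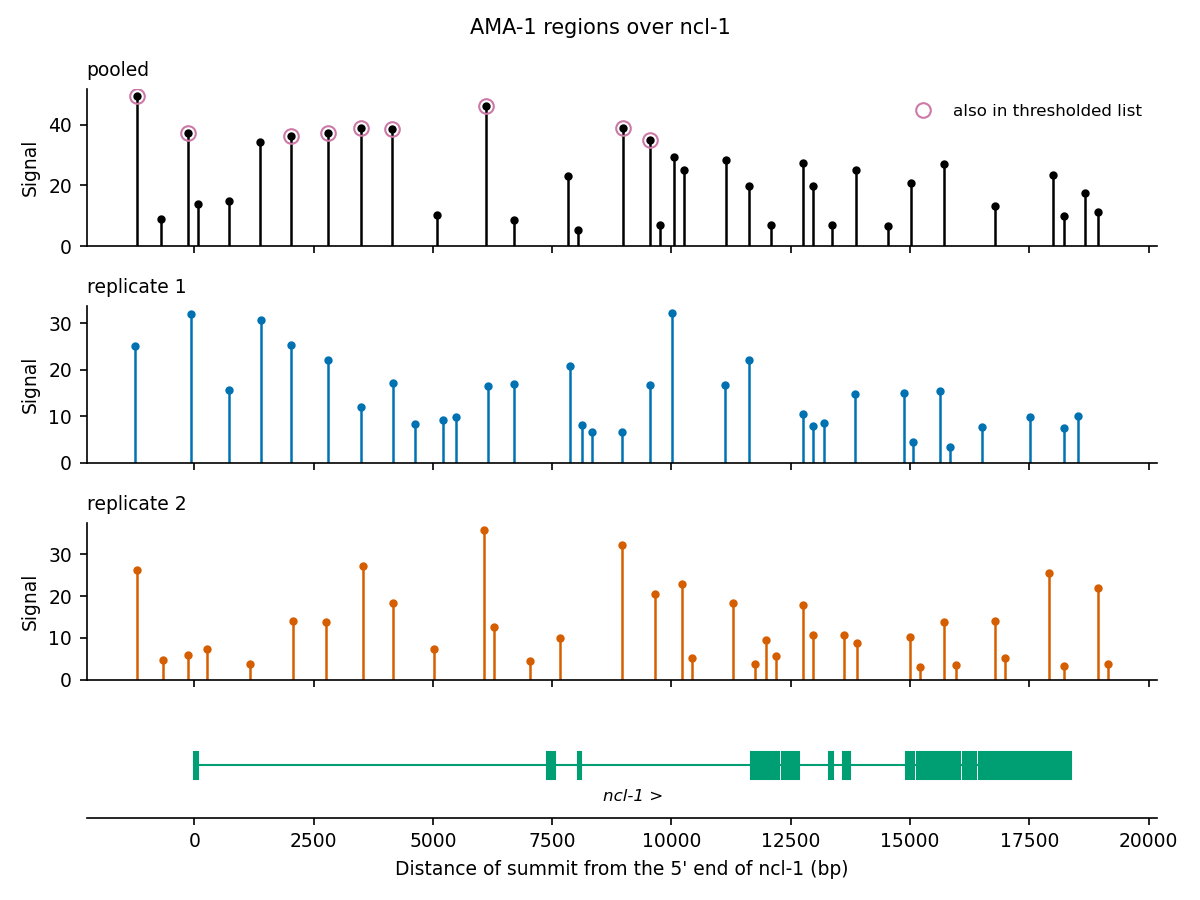
Signal of each listed region over ncl-1 by the distance of its summit from the 5' end in bp, for the pooled list, replicate 1 and replicate 2, with pooled regions of the thresholded list ringed and exons of the longest transcript below. Regions run along all 18377 bp, the strongest pooled one inside the gene has 46.1, and a ringed one of 49.3 lies outside the window.

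The strongest summit of ncl-1 lay in a different intron in each replicate. In replicate 1 the regions among its 1328 highest were 4, at -64, 1400, 2023 and 10017 bp, with signals of 31.9, 30.7, 25.3 and 32.1. In replicate 2 they were 9, of which the strongest had 35.8 at 6076 bp, 32.3 at 8961 bp and 27.3 at 3529 bp. At the outermost 5' end replicate 2 had 5.93, at -129 bp, where replicate 1 had 31.9 at -64 bp and the pooled list 37.4 at -127 bp. Near its own strongest summit at 10017 bp, replicate 1 was joined by replicate 2 with 22.8 at 10228 bp. At the strongest pooled summit, 6115 bp, replicate 1 had 16.5 at 6165 bp and rank 2985, outside its 1328 highest. Both replicates had a region that lay outside the window, of 25.1 at -1235 bp in replicate 1 and 26.3 at -1202 bp in replicate 2. Its pooled signal of 49.3 at -1203 bp was higher than any inside the window, and it lay more than 500 bp from ncl-1.

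The upstream region of ncl-1 and the first-intron region that was strongest in the pooled list and in replicate 2, though not in replicate 1, are shown because they differ in composition. They are chrIII:7719432-7719728, the part before the gene, and chrIII:7725695-7725994, 300 bases around the pooled summit, both on the plus strand, which is that of the gene, with 11 bases at the summit in capitals:

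ncl-1 upstream: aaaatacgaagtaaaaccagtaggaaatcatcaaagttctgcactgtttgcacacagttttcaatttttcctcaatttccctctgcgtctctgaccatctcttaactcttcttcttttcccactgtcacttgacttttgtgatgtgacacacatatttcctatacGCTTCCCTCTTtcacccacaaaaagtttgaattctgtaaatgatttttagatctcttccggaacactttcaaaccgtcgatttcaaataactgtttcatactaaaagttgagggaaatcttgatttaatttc
ncl-1 first intron: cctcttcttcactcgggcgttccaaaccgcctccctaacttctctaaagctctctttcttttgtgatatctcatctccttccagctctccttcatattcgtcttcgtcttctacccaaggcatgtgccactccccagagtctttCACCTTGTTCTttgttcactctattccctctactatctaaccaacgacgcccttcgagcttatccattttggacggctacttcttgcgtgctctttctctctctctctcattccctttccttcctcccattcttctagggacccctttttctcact

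The intron sequence holds 47.7% G and C and 75.0% pyrimidines on the strand of the gene, and the upstream sequence 35.7% and 59.9%. Counting pyrimidines or purines, whichever is commoner, the median over 300 bases around thresholded summits was 54.3%, and 1 of the 1328, this one, reached 75.0%. In the pooled list 13 of 30000 did. This property was chosen after the sequence was seen. Neither stretch holds any of these 3 motifs on either strand, and all words in both are unique.

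Over the promoters of all 7 genes, 1 held CACGTG on either strand (pro-3), beside 5.82% of all protein-coding promoters of 300 bases. TTTCAG was held by 5 of 7, beside 51.7%, and TATAAA by 2 of 7, pro-1 and nst-1, beside 37.9%.

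Between replicates, the ratio of the strongest signal in replicate 1 to that in replicate 2 was 2.24 at fib-1, 1.5 at pro-1, 1.26 at pro-3, 0.9 at ncl-1 and 0.8 at dao-5. Over the 6936 protein-coding genes with a region in both replicates the median ratio was 1.56, and the 10th and 90th percentiles were 0.74 and 3.23. None of the 5 ratios lay outside that range. At pro-3, ncl-1 and dao-5 the strongest regions of the 2 replicates lay at different places, so those ratios do not compare 1 region. Just upstream of the 5' end, dao-5 had 7.84 in replicate 1 and 12.2 in replicate 2. There ncl-1 had 31.9 in replicate 1 and 5.93 in replicate 2. The protein-coding genes most like pro-1 by rank in the 2 replicates were W06H8.6, T26A8.4 and dos-3. Their ranks were 31 and 21, 40 and 12, and 35 and 26, in replicates 1 and 2, and their pooled signals were 188, 205 and 179.

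Other genes of ribosome production were counted from lists of symbols, with the same window. Of 63 symbols of ribosome assembly factors, 35 matched the annotation. Of these genes 29 carried a pooled region, 32 one in replicate 1 and 25 one in replicate 2. The shares of all protein-coding genes were 42.8%, 42.6% and 44.8%. Their median strongest pooled signal was 12.5. In the thresholded list 4 of the 35 had a region, beside the 4.68% of all genes given above. These were nol-58, which encodes a core protein of box C/D particles, with a pooled signal of 40.7 (27.6 in replicate 1 and 13.7 in replicate 2), lpd-7, the pescadillo gene, with 38.0 (25.9 and 10.9), wdr-46 with 36.0 (15.3 and 17.8) and rrp-8 with 34.8 (23.2 and 15.7). The region of nol-58 was also in the window of zip-4 and that of lpd-7 in the window of rpl-9, so they were shared as that of fib-1 was.

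The genes for RNA polymerase I and its initiation factor carried a pooled region in 7 of 7 cases, with a median of 22.1, beside 42.8% of all protein-coding genes. Highest were rpac-19, a subunit shared with RNA polymerase III, with 80.9 (35.0 in replicate 1 and 42.6 in replicate 2), rpoa-1, the largest subunit, with 31.2 (24.3 and 12.6), and tif-1A with 29.7 (18.7 and 8.12). The summit of rpoa-1 lay deep in the gene, in an intron at 20933 bp of 24170. Of these, rpac-19 had a thresholded region. Genes of the RNA exosome, which trims ribosomal RNA ends, had a pooled region in 10 of 12 cases, beside the same 42.8%, with a median of 10.4. They were led by exos-9 with 41.0, exos-4.1 with 36.9 and crn-3 with 31.9, and 2 of the 12 had a thresholded one, beside 4.68%. The region of tif-1A was also in the window of C36E8.11, and that of exos-4.1 in those of dli-1 and tin-9.2.

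Ribosomal protein genes had pooled regions in 31 of 31 small subunit genes, with a median of 30.7, and in 45 of 50 large subunit genes, with a median of 28.0. The share of all protein-coding genes was 42.8%. Highest were rps-12 with 102, rps-1 with 97.8 and rps-19 with 72.7, and rpl-3 with 139, rpl-20 with 127 and rpl-15 with 97.6. Of these lists 15 of 31 and 18 of 50 were in the thresholded list, beside 4.68% of all protein-coding genes. Many of these regions were shared. Among the genes just named, only rpl-3 had its strongest region in no other gene's window. Some regions counted for a gene of each list, as at rps-14 and rpl-36, both with 40.0. The pooled signal counted for pro-1 was above that of each ribosomal protein gene counted, but its region lies just past mnk-1 and may not belong to pro-1. The signals of ncl-1 and fib-1 were above both medians and those of dao-5 and nst-1 below. Strongest pooled summits lay within 500 bp of the 5' end in 31 of 31 small subunit and 42 of 45 large subunit genes with a region, and in 19 of 29 assembly factor genes. The median length was 756 and 754 bp for the ribosomal protein lists and 2675 bp for the assembly factors, so a short gene has little body outside that distance.

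**Figure D5:**
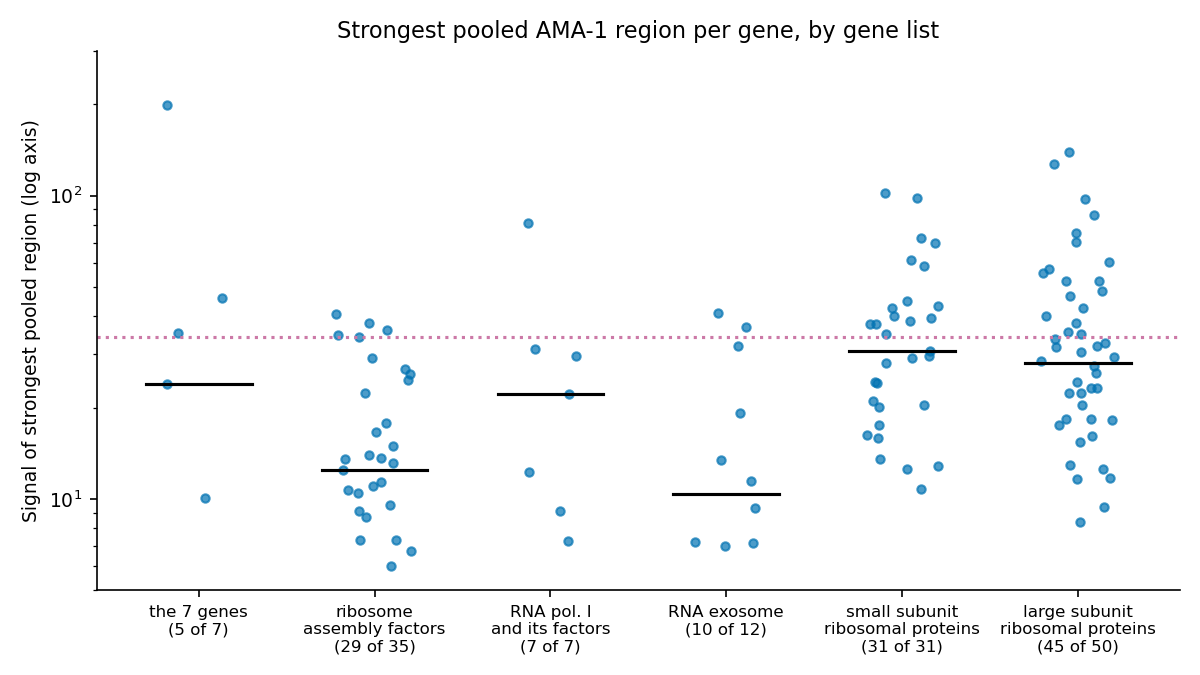
Signal of the strongest pooled region (log axis) of each gene, one point per gene with a region, for the 7 genes and 5 lists of related genes; bars are medians over all genes of a list with a missing region taken as 0, the dotted line is the lowest signal of the thresholded list, and genes with a region are counted below each name. Of all the points, pro-1 with 199 is highest, though the gene of that region is uncertain, and rpl-3 follows with 139.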

How the data were processed

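AMA-1 chromatin immunoprecipitation and sequencing of 2 biological replicates of L1 larvae formed 1 group. Per the deposited file descriptions, the regions of each replicate were made on ce11 from its alignments and a control, the pooled list from the alignments of both, and the thresholded list by an irreproducible discovery rate analysis. The sources used here name no peak caller, threshold or control preparation. Each region's deposited signal was used as it stands, and the deposited −log10 q-value only to describe regions. Lists on ce10 were not used, since the annotation is of ce11.

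Genes came from Ensembl release 115 on WBcel235 and bases from the RefSeq genome of that assembly, with mitochondrial genes left out. Coordinates are 1-based. Summits were assigned to every window that held them. Regions of lists met where they overlapped by at least 1 bp. Uniqueness is the share, in percent, of 31-base words with a single genomic copy. The members and lists were chosen with earlier results of these data known. Named are the 7 genes, the 3 highest of each list, assembly factors with a thresholded region, genes that share a member's strongest region and the 3 genes nearest to pro-1 by rank. Neighbouring genes (mnk-1, tent-5, rps-16, cct-4 and others) were named after their values were seen. With 1 group of 2 samples no test was made. Alternatives were other windows and assignment rules and each replicate alone. The search for the strongest summit in a window was checked on simulated summits at 200 of the 19973 genes. In 200 of 200 it matched a direct look-up in the same windows, so the placing of the windows was not checked. Python 3.11.15, numpy 2.4.6, pandas 2.3.3 and matplotlib 3.10.9 were used.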

Additional observations from a re-analysis of the deposited data

How the results depend on the processing

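The 5 genes with a pooled region were also 5 with a window of 250 bp, with overlap of the region in place of its summit, with summits within 500 bp of the 5' end, with the nearest 5' end and above the median signal. With 1000 bp they were 6, pro-2 joining with 6.15, from a summit in the window of C07E3.10. Each replicate alone gave 6. The 3 genes of the thresholded list became 1, pro-1, among regions above that list's median, a smaller set, and were 2 and 3 among as many highest regions of replicate 2 and replicate 1. The strongest signal of ncl-1 was 37.4 within 500 bp of the 5' end and 38.9 with the nearest 5' end, which leave out its strongest summit. That of nst-1 was 8.56 within 500 bp of the 5' end and 10.1 with 1000 bp and with overlap. With either replicate left out, the strongest signal was 79.9 to 120 at pro-1, 10.9 to 24.4 at fib-1, 32.1 to 35.8 at ncl-1, 9.78 to 12.2 at dao-5 and 8.54 at nst-1 without replicate 2 (no value without replicate 1), on the separate scales of those lists. Of 70 alternative values 55 stayed within an SD of the replicates or, for a count, within 1.5 times. That tally does not measure robustness. Leaving out a replicate changed the scale of the signal, and many of the other alternatives kept the same region. For nst-1, with a value in 1 replicate, no SD exists and any other region counted as a move, including the one with 1000 bp or overlap, which has the same signal to the digits shown. No paired analysis was possible because the samples form 1 group. The unknown depth limits what a missing region means.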
